A study of Mus musculus with 5 samples.

Results

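Purinergic signalling in the dorsal lateral geniculate nucleus (dLGN) of newborn mice, a thalamic nucleus that passes retinal input on to the cortex, was followed through 9 genes: the P2Y receptors P2ry1, P2ry6, P2ry12, P2ry13 and P2ry14, the P2X channels P2rx4 and P2rx7, the adenosine receptor Adora3 and the nucleotide-degrading enzyme Entpd1. They were taken by gene symbol in the array annotation, which gave 17 probe sets of 45101 on the array, and all 17 are reported. RNA came from mice on a C57BL/6 background at postnatal day 0 and was measured on 5 Affymetrix arrays. The 2 knockout arrays carried RNA of mice without a working copy of Sema6a (Sema6A-/-), and the 3 control arrays carried RNA of Sema6A heterozygous mice, so that the controls also lack 1 copy of the gene. Each array held pooled tissue from pups of several litters, and spread within a group is therefore spread between pools. The labels do not name the allele or the sex of the pups.

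Cells release ATP, ADP and UTP into the space around them when they are active or damaged. P2X channels open on binding ATP, whereas P2Y receptors couple nucleotides to G proteins, and surface enzymes such as CD39, the product of Entpd1, degrade the nucleotides on the way to adenosine. In the brain, microglia use this system to sense tissue: P2Y12 steers their processes towards a source of nucleotides, P2Y6 takes part in phagocytosis, and P2X7 is linked to the inflammasome.

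P2ry6 rose in the knockout, and P2ry12 and P2ry13 lay above every control in both knockout pools, by 3.64-fold, 2.60-fold and 2.56-fold on average. P2rx4, P2rx7 and Entpd1 also lay above every control, by 1.27-fold to 1.67-fold on average at the probe set with the highest mean of each gene, and P2ry1, P2ry14 and Adora3 overlapped between the groups. All other probe sets of P2rx4 and P2rx7 overlapped between the groups as well. Of the 17 probe sets, 1 passed an adjusted p of 0.05 (limma, all 45037 non-control probe sets), the P2ry6 one, and it was higher. Of all probe sets, 0.0733% passed, 0.0644% higher and 0.00888% lower in the knockout. Both knockout arrays lay above every control for 8 member probe sets of 6 genes, where 12.9% of all probe sets did so, and below every control for 0, where 14.5% did. An unadjusted limma p below 0.05 was reached by 6 member probe sets that were higher and by 0 that were lower, against 5.16% and 5.99% of all probe sets. The median log2 difference over the 17 probe sets was 0.25, and over all probe sets it was -0.01. With 1 probe set a gene, the one with the highest mean, the member median was 0.49, and over all genes it was 0.01.

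**Figure D1:**
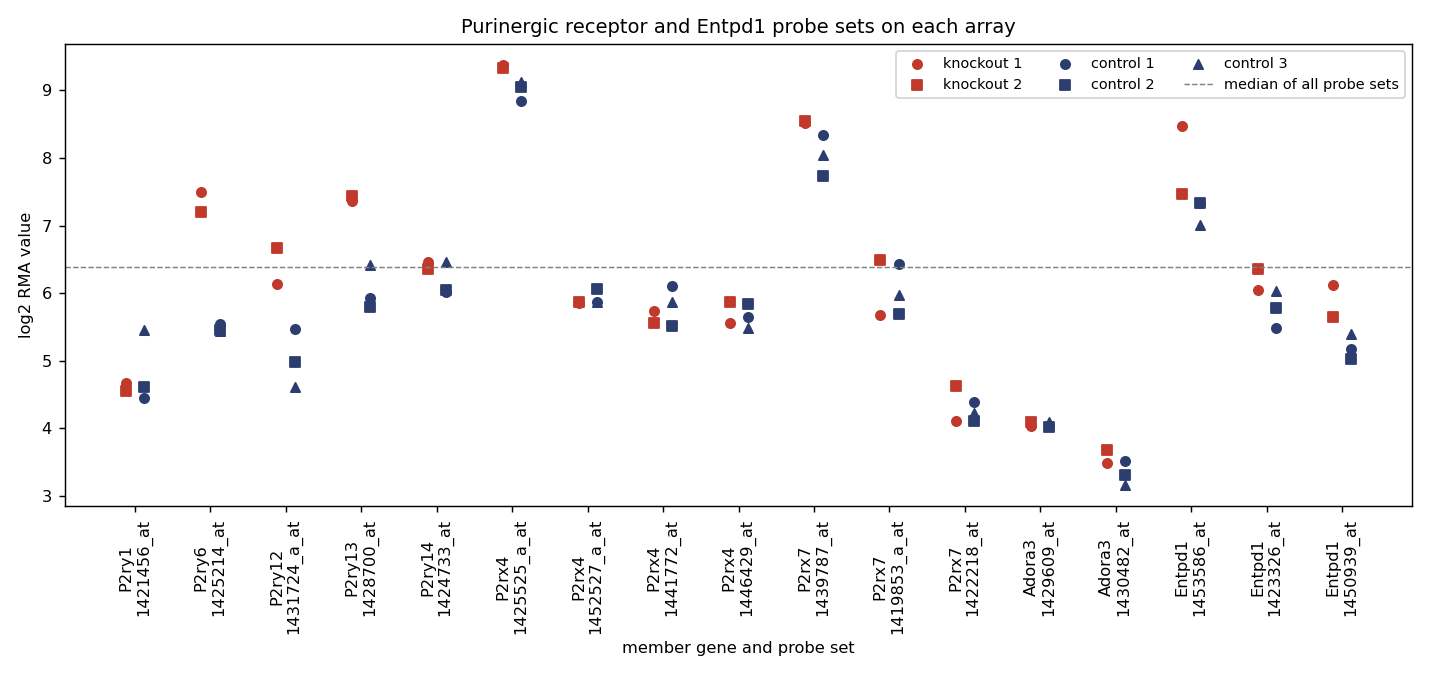
Log2 RMA values (vertical axis) of the 17 member probe sets (horizontal axis) on each of the 5 arrays, red for knockout and blue for control, with the median of all probe sets as a dashed line. Red and blue points separate widely at P2ry6, P2ry12 and P2ry13 and lie close together or mixed at P2ry1, P2ry14 and Adora3.

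Values are log2 expression values made with RMA, in which 1 unit is a doubling, and levels are not comparable between probe sets. Sema6a read 7.81 and 7.85 on the knockout arrays and 10.39 to 10.65 on the controls at its brightest probe set. Knockout replicate 1 stood apart in markers of GABAergic and prethalamic neurons, whose median lay 2.69 above the control mean there and 0.08 above it in replicate 2, and in a 3′ minus 5′ difference for Gapdh of 2.34, against 0.77 to 1.33 in the other arrays. Knockout replicate 2 differed in Xist, at 4.10, where no other array was below 10.79. Control replicate 3 stood apart in meningeal markers, whose median lay 1.02 above the control mean there and below it in the other arrays, and in Pf4, a gene of platelets and border macrophages, at 7.33 against 4.22 to 5.36. Precision is limited by there being 5 arrays, and an exact permutation test of 2 arrays against 3 cannot give a p below 0.1. In bulk tissue, a different number of cells of a type and a different amount of RNA per cell cannot be told apart.

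The P2Y12-like receptor genes P2ry12, P2ry13 and P2ry14 neighbour each other on chromosome 3, and each overlaps Med12l, a subunit gene of the Mediator complex. Their upstream sequences are shown because the knockout pools lay above every control for P2ry12 and P2ry13 and overlapped the controls for P2ry14. The 250 bases before the annotated start, from RefSeq in the GRCm38.p6 build, are given 5′ to 3′, for P2ry14 at the start farthest upstream of the 4 in the table. Capitals mark GAGGAA or its reverse complement TTCCTC, 1 form of the site of the myeloid factor PU.1. Other forms of the site were not searched, so a window without capitals may still hold one.
P2ry12 promoter, chr3:59262986-59263235, minus strand: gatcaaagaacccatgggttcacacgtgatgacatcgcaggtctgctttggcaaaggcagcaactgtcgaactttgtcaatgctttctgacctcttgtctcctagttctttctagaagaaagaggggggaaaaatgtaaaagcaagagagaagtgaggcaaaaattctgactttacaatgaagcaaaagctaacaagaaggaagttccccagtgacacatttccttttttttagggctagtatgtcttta
P2ry13 promoter, chr3:59210883-59211132, minus strand: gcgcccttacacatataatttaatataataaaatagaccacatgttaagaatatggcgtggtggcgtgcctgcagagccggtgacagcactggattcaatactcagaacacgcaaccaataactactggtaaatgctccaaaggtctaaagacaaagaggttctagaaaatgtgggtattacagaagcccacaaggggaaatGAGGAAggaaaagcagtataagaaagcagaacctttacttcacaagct
P2ry14 promoter, chr3:59153493-59153742, minus strand: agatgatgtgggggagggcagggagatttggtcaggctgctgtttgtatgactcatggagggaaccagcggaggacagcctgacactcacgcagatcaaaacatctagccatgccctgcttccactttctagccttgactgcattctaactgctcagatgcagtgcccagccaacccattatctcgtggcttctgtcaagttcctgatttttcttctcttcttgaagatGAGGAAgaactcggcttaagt
The motif begins 48 bases before the start of P2ry13 and 21 bases before that of P2ry14, and these letters are not in the P2ry12 window. Over the 8 members with a promoter in the table (all but P2ry6), it was in 7 of 13 windows and in at least 1 window of 4 genes, Entpd1 and Adora3 beside P2ry13 and P2ry14. Of all 32851 promoters cut to the same length, 23.3% hold it. The 4 windows of P2ry14 overlap in part, so these counts are not independent.

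P2ry6 encodes a receptor for UDP that couples to phospholipase C. Its probe set read 7.49 and 7.19 in knockout replicates 1 and 2 and 5.55, 5.46 and 5.44 in control replicates 1, 2 and 3. The groups were separated by 1.65 log2 units, and the means were 7.34 ± 0.21 (SD, n = 2) in the knockout and 5.48 ± 0.06 (SD, n = 3) in the control. The difference was 1.86 with a standard error of 0.13 (95% limma interval 1.53 to 2.20, limma adjusted p = 0.0360). The level went from the 40.6th percentile of all probe sets in the control to the 58.0th in the knockout. The call was lost with any 1 array left out, with limma adjusted p-values from 0.0659 without knockout replicate 2 to 0.260 without control replicate 3. The difference itself then lay between 1.71 and 2.01, and 0 probe sets of the whole array passed in any of these 5 fits.

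P2ry12 encodes the ADP receptor that microglia carry in the resting state and that platelets use in aggregation. It read 6.13 and 6.67 in the knockout and 5.47, 4.98 and 4.61 in the control. Both knockout pools lay above the highest control, although the controls spread over almost a log2 unit. The difference was 1.38 (standard error 0.30, 95% limma interval 0.63 to 2.12) with an unadjusted limma p of 0.00442 and an adjusted p of 0.227, which missed the threshold.

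P2ry13, a second ADP receptor of myeloid cells, read 7.37 and 7.43 in the knockout and 5.93, 5.79 and 6.42 in the control. The knockout pools were close together and lay 0.95 above the highest control, replicate 3. The difference was 1.35 (standard error 0.21, 95% limma interval 0.84 to 1.87) with an unadjusted limma p of 0.000823 and an adjusted p of 0.130. The differences of P2ry12 and P2ry13 were close in size, and their intervals overlap.

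P2ry14, the receptor for UDP-glucose and the third gene of the cluster, read 6.46 and 6.36 in the knockout and 6.02, 6.05 and 6.47 in the control. Control replicate 3 was as high as the knockout pools, so the groups overlapped. The difference was 0.23 (95% limma interval -0.20 to 0.66, adjusted p = 0.661), an interval that lies below that of P2ry13 and overlaps that of P2ry12. Whether the genes differ from each other was not tested. With any other array left out, the difference of P2ry14 lay between 0.15 and 0.28. Without control replicate 3 it was 0.38 (limma unadjusted p = 0.0274, adjusted p = 0.547) and the groups no longer overlapped. That array was the only control to reach the knockout values, so leaving it out had to separate the groups. The meningeal markers and Pf4 were high in that same array, and their part in this value was not tested. Med12l, which overlaps all of them, read 10.49 and 10.61 in the knockout and 10.35 to 10.53 in the control, a difference of 0.13 (limma adjusted p = 0.720). Cross-reading of transcripts between these overlapping genes was not tested.

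P2ry1, an ADP receptor of astrocytes, endothelium and platelets, was below the median level of the array in every pool. It read 4.68 and 4.55 in the knockout and 4.46, 4.61 and 5.46 in the control. The high value was that of control replicate 3 alone, and the other arrays lay together. The difference was -0.23 (95% limma interval -1.02 to 0.55, adjusted p = 0.820), and without control replicate 3 it was 0.077. This is again the array with the high meningeal markers and Pf4, whose part in the value was not tested.

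**Figure D2:**
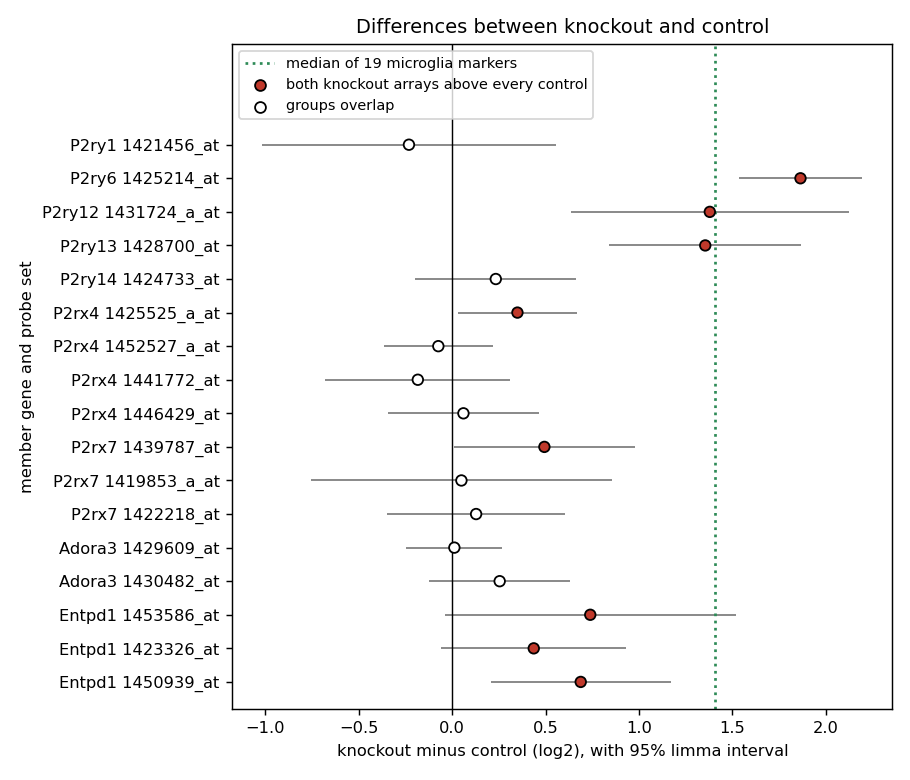
Knockout minus control on the log2 scale (horizontal axis) for each member probe set (vertical axis), with 95% limma intervals; filled points mark probe sets where both knockout arrays lay above every control. P2ry6, P2ry12 and P2ry13 sit at 1.35 to 1.86, near or past the median of the 19 microglia markers (dotted line, 1.40), and the other members lie between -0.23 and 0.74.

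Of the P2X channels, P2rx4, which encodes an ATP-gated cation channel found in neurons and in microglia, had 4 probe sets. The brightest (1425525_a_at) read 9.38 and 9.33 in the knockout and 8.84, 9.05 and 9.12 in the control. Both knockout pools lay above the controls by 0.21, and the difference was 0.35 (95% limma interval 0.029 to 0.67, unadjusted p = 0.0375, adjusted p = 0.413). The other probe sets of P2rx4 lay below the median level and gave -0.074, -0.18 and 0.060, each with overlapping groups. The probe sets of the gene therefore did not give 1 direction. P2rx4 overlaps Camkk2, a kinase gene, in the annotation, and Camkk2 differed by -0.16 (limma adjusted p = 0.616).

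P2rx7, whose channel responds to high ATP and is linked to the release of interleukin-1, lies next to P2rx4 on chromosome 5. Its brightest probe set (1439787_at) read 8.52 and 8.55 in the knockout and 8.34, 7.74 and 8.04 in the control. The knockout pools lay above the highest control by 0.18, and the difference was 0.49 (95% limma interval 0.01 to 0.98, unadjusted p = 0.0472, adjusted p = 0.442). The other probe sets overlapped between the groups, with 0.049 at 1419853_a_at and 0.13 at 1422218_at. At 1419853_a_at the knockout pools themselves were far apart, at 5.67 and 6.50, either side of the control median.

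Adora3 encodes the adenosine A3 receptor, known from mast cells and from rodent microglia. Its probe sets were the dimmest of the members, at percentiles 22.9 and 14.1 of all probe sets in the control. The brighter one (1429609_at) read 4.03 and 4.09 in the knockout and 4.02 to 4.09 in the control. These values did not separate, and the difference was 0.012 (95% limma interval -0.24 to 0.27, adjusted p = 0.978). The dimmer one read 3.49 and 3.69 against 3.16 to 3.52, a difference of 0.25 (95% limma interval -0.12 to 0.63, adjusted p = 0.598). RMA compresses differences near the background. The annotated span of Adora3 overlaps Tmigd3, which has no probe set of its own name here.

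Entpd1 encodes CD39, which removes phosphates from ATP and ADP and is carried by microglia and by endothelium. All of its 3 probe sets had both knockout pools above every control. In the annotation 1423326_at and 1450939_at share the same source sequence, so they are not independent readings. At 1450939_at the values were 6.12 and 5.64 in the knockout and 5.17, 5.03 and 5.39 in the control, a difference of 0.69 (95% limma interval 0.21 to 1.17, unadjusted p = 0.0137, adjusted p = 0.317), and without knockout replicate 1 it was 0.45. At the brightest, 1453586_at, knockout replicate 1 read 8.47 and replicate 2 7.47, against 7.34, 7.34 and 7.01 in the control. The difference of 0.74 (95% limma interval -0.04 to 1.52, adjusted p = 0.471) rested largely on knockout replicate 1, and without it was 0.24. That array also carried the high GABAergic markers and the high 3′ minus 5′ difference of Gapdh given above, and their part in this value was not tested. At 1423326_at the values were 6.05 and 6.35 against 5.48, 5.79 and 6.03, so that the groups were only 0.026 apart (difference 0.44, limma adjusted p = 0.498, and 0.29 without knockout replicate 2).

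Markers of microglia were higher in the same pools. Of 20 markers written down for this cell type, which hold none of the members, 19 were measured, and all 19 had a higher mean in the knockout, with both knockout arrays above every control for 18. Among all genes at their brightest probe set, 15.8% had both knockout arrays above every control. Their median log2 difference was 1.40, against 0.01 over all genes, and 17 had an unadjusted limma p under 0.05, where 6.9% of all genes were that much higher. Tyrobp, a signalling adaptor of microglia, rose by 2.46 (limma adjusted p = 0.0236) and was the 1 marker past the adjusted threshold, where 0.0879% of genes passed as higher and 0.0165% as lower. Siglech, a lectin gene of microglia, read 6.18 and 6.53 in the knockout and 6.05 to 6.52 in the control. The mean level of the list was 8.58 and 8.45 in the knockout and 6.99 to 7.17 in the control. No marker was listed at 0, and the dimmest, Itgam, a subunit of a complement receptor, read 2.61 to 3.03.

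The members were set beside these markers by subtracting, on each array, the median of the centred markers (1.45 and 1.40 in knockout replicates 1 and 2) from the member's value centred on the control mean. P2ry12 then read -0.34 and 0.25 in the knockout, which overlapped the controls at -0.34 to 0.40. P2ry13 read -0.12 and -0.01, inside the control range of -0.18 to 0.44. P2ry6 read 0.57 and 0.31, above the controls at 0.01 to 0.05. For the other members the subtraction itself sets the outcome, since a probe set with no difference between the groups would read about as far below 0 as the markers lie above it, as the dim Adora3 probe set 1429609_at did at -1.47 and -1.36. These values are descriptions of 5 arrays and were given no test.

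**Figure D3:**
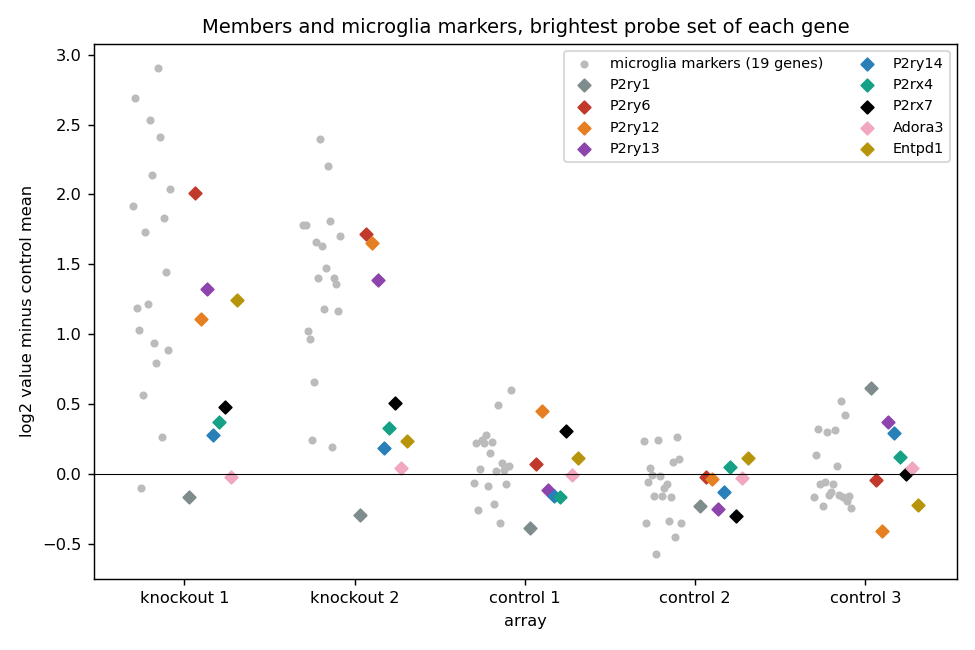
Log2 value minus the control mean (vertical axis) on each array (horizontal axis) for the 19 microglia markers (grey dots) and the 9 members (coloured diamonds), each at its brightest probe set. In both knockout arrays P2ry6, P2ry12 and P2ry13 lie among the markers, whereas P2ry14, P2rx4, P2rx7, P2ry1 and Adora3 lie near or under the lower end of the markers.

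Markers of other cells known to carry these receptors or enzymes are given beside them. For comparison, 15.8% of all genes lay above and 13.9% below every control in both knockout arrays, and the median difference over all genes was 0.01. The share with a higher mean in the knockout was taken over all probe sets, not genes, and was 48.5%. Of 9 platelet markers, 2 had a higher mean in the knockout 0 lay above and 1 below every control, with a median of -0.19. Of 8 mast cell markers, 4 were higher, 3 lay above and 2 below every control, with a median of 0.01, and Hdc, the histidine decarboxylase gene, read 8.38 and 7.21 in the knockout and 9.68 to 9.80 in the control (limma adjusted p = 0.161). Of 13 markers of endothelium and pericytes, 8 were higher and 4 lay above and 0 below every control. Their median was 0.12 (-0.040 without control replicate 1 and 0.29 without knockout replicate 1), and Abcc9, a pericyte gene, gave 0.65 (limma adjusted p = 0.384). Of 9 border macrophage markers, 4 were higher, 1 lay above and 0 below every control, with a median of -0.01 and Stab1, a scavenger receptor gene, at 0.62 (limma adjusted p = 0.405). Of 10 markers of radial glia and astrocytes, 8 were higher, 2 lay above and 0 below every control, with a median of 0.10. Their part in the values of P2ry1, Adora3 and Entpd1 was not tested.

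The remaining lists gave medians of -0.16 over 9 neutrophil and monocyte markers and -0.19 over 6 red cell markers. Over 9 oligodendrocyte lineage markers the median was 0.23, and over 8 meningeal markers -0.52. It was 0.07 over 12 relay neuron markers and 1.25 over 14 GABAergic markers. Without knockout replicate 1 the GABAergic median was 0.083, and without control replicate 3 the meningeal median was 0.069. In these lists 0 genes passed the adjusted threshold in limma. Among the neutrophil markers, S100a8 gave -2.46 (limma adjusted p = 0.0720) and S100a9 -2.32 (0.0865), both below every control. With an unadjusted p below 0.05 there were 2 neutrophil genes lower, 1 red cell gene lower, 3 oligodendrocyte genes higher and 1 lower, 1 meningeal gene each way, 2 relay neuron genes higher and 1 lower, and 4 GABAergic genes higher, against 6.9% of all genes higher and 4.9% lower.

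The rest of the purinergic system, 91 listed genes of which 81 were measured, had 0 genes past an adjusted p of 0.05 in either direction in limma. With an unadjusted p below 0.05 there were 10 higher and 3 lower genes, against 6.9% and 4.9% of all genes. The same shares stand beside the counts of each group below. The median difference was 0.08. The adenosine receptor genes Adora1, Adora2a and Adora2b were not analysed here.

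Of 9 other nucleotide receptors, 0 were higher and 1 was lower at that unadjusted threshold. P2rx3, the ATP channel known from sensory neurons, read 5.99 and 6.11 in the knockout and 6.72, 6.87 and 6.86 in the control. Its knockout values lay below every control, opposite to P2rx4 and P2rx7 at their brightest probe sets, with a difference of -0.76 (limma adjusted p = 0.130). P2rx2 gave -0.20, P2rx1 0.26 and P2ry2, the neighbour of P2ry6 on chromosome 7, 0.19, with limma adjusted p-values from 0.617 to 0.661.

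Of 12 enzymes that hydrolyse nucleotides beside Entpd1, 1 was higher and 1 lower at that unadjusted threshold. Enpp4, of the nucleotide pyrophosphatase family, read 8.62 and 8.50 against 7.75 to 8.11, a difference of 0.59 (limma adjusted p = 0.278). Acpp, an acid phosphatase that can act on AMP, read 4.25 and 3.42 against 4.77 to 5.52, a difference of -1.25 (limma adjusted p = 0.290). Entpd5 gave 0.31 and Entpd6 0.17, with limma adjusted p-values of 0.559 and 0.616. Both knockout pools lay above every control for these genes, as for 15.8% of all genes, but by only 0.003 and 0.085. Nt5e, which encodes CD73, the enzyme that makes adenosine from AMP after CD39, read 5.93 and 6.26 in the knockout and 6.17 to 6.26 in the control, so that the groups overlapped.

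Among 14 genes of adenosine handling and transport 1 was higher at the unadjusted threshold. This was Pnp, a purine nucleoside phosphorylase, with 8.96 and 8.50 against 7.76 to 8.23, a difference of 0.71 (limma adjusted p = 0.336). Adk, adenosine kinase, gave 0.25, Samhd1, a nucleotide phosphohydrolase, 0.20 and the nucleoside transporter gene Slc28a3 -0.13. Among 12 genes of nucleotide release, the channels and transporters by which ATP leaves a cell, 0 had an unadjusted limma p under 0.05, and the median was -0.01. Gja1, a connexin of astrocytes, gave 0.30, Lrrc8c -0.44, Gjb6 -0.26 and Gjb2 0.24.

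**Figure D4:**
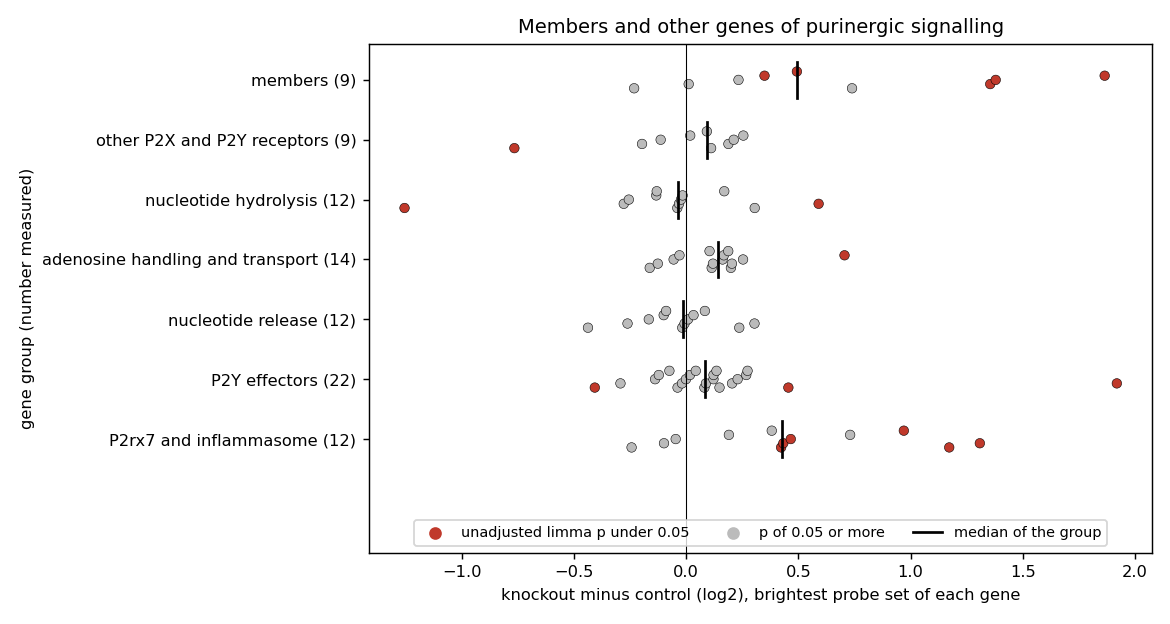
Knockout minus control on the log2 scale (horizontal axis) for the 9 members and for 6 other groups of purinergic genes (vertical axis), each point a gene at its brightest probe set and each bar a group median; red points have an unadjusted limma p under 0.05. The medians lie at 0.49 for the members, 0.43 for the P2rx7 and inflammasome group and between -0.04 and 0.14 for the others.

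Of 22 effectors downstream of P2Y receptors, 2 were higher and 1 lower at the unadjusted threshold. Plcb1, a phospholipase C of neurons, read 9.71 and 10.31 in the knockout and 7.91, 8.18 and 8.19 in the control. The groups were well apart, with a difference of 1.92 (limma adjusted p = 0.0812). Gnai2, an inhibitory G protein subunit gene at the 91.4th percentile in the control, gave 0.46 (limma adjusted p = 0.247). Plcb4 gave -0.41 (0.363) and Itpr2 0.27 (0.499). Kcnk13, which encodes a potassium channel that microglia use for surveillance, read 6.04 and 5.26 in the knockout and 5.06 to 6.12 in the control, so that the groups overlapped.

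Of 12 genes linked to P2X7 and the inflammasome, 6 were higher and 0 lower at an unadjusted limma p under 0.05. Of all genes, 6.9% were higher and 4.9% lower at that threshold, and 0 of the 12 passed the adjusted one. Nek7, a kinase that binds the inflammasome sensor NLRP3, read 11.65 and 11.42 in the knockout and 10.29, 10.39 and 10.41 in the control, a difference of 1.17 (limma adjusted p = 0.0755). Casp1, the protease of the complex, gave 0.97 (adjusted p = 0.142), Pycard, its adaptor, 1.31 (0.189) and Il18, a cytokine that the protease cleaves, 0.43 (0.272). The sensor Nlrp3 itself read 4.78 and 4.56 against 4.39 to 4.63, and Il1b read 4.19 and 3.99 against 4.22 to 4.53, both below the median level. Gsdmd, the pore-forming target of the protease, gave 0.47 and Il1a 0.42. With an intensity trend in the prior, Nek7 (adjusted p = 0.0342) and Plcb1 (0.0429) passed in limma.

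Genes within 200 kb of a member in the annotation gave 28 measured neighbours that are no members, with a median difference of -0.01 and 0 past the adjusted threshold in limma. An unadjusted limma p below 0.05 was reached by 6.9% of all genes as higher and 4.9% as lower. Near those shares, it was reached by 2 higher and 2 lower of the 28 neighbours. They were Igsf10, near the P2ry12 cluster, at -0.50, Relt, near P2ry6, at -0.48, Pifo, near Adora3, at 1.59, and Rnf34, near P2rx4, at 0.34, with limma adjusted p-values from 0.339 to 0.417. Gpr171, a receptor gene within the same cluster as P2ry12, read 3.94 and 5.64 in the knockout and 4.24 to 5.14 in the control.

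The median profile of the members at their brightest probe sets lay 0.48 and 0.33 above the control mean in knockout replicates 1 and 2. Of 11743 other genes at or above the median level, those with the smallest root mean square difference from this profile over the 5 arrays were Mtus2 (0.0255), Flvcr2 (0.0283), Stat3 (0.0292), Pou3f3 (0.0308) and Dennd6a (0.0327). None of these 5 is in the microglia list, and the profile is that of a median between members that differed strongly and members that did not.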

How the data were processed

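Per the labels' protocols, dLGN tissue was dissected from vibratome sections of 200 µm and 20 ng of total RNA was amplified and biotin-labelled for Affymetrix arrays. What the authors deposited is 1 log2 value per probe set and array. RMA is named in the submitters' processing notes, and its version was not given in the sources used here. RMA corrects background, equalises the distributions of arrays and summarises probes, which hides any shift common to most genes. The array medians lay between 6.39 and 6.42.

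Groups came from the labels. All 45037 probe sets other than 64 array controls were fitted with limma 3.58.1 in R 4.3.3 (lmFit, eBayes, two-sided, genotype as the only term), with Benjamini-Hochberg adjustment over all of them; the fit was tested on simulated data. The fit had 3 residual degrees of freedom and borrowed 2.52 from the prior. Outside the members, a gene's brightest probe set stands for it; probe sets with several annotated genes (932) or none (9160) gave no gene name. From each list up to 4 genes with the smallest p were named, with others (Entpd6, Nt5e, Kcnk13, Nlrp3, Il1b, Siglech, Itgam, Med12l, Camkk2, Gpr171, Gsdmd, Il1a, Pf4) chosen after their values were seen. The members and lists were chosen with earlier results of these data known. Protein sequences were not used here. Alternatives included a block for the replicate number, further normalisations, a filter on dim probe sets, other priors, array weights, other thresholds and each array left out.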

Additional observations from a re-analysis of the deposited data

How the results depend on the processing

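The difference of P2ry6 lay between 1.71 and 2.01 under all alternatives run for it, and its adjusted p in limma between 0.0267 and 0.306. Its call held with further quantile normalisation, centring, an intensity trend, a robust prior and array weights, and was lost without any 1 array. Without dim probe sets P2ry6 was itself left out of the fit, 0 members passed, 98 probe sets passed in all, 2 other purinergic genes passed and the member median was 0.62 over the 4 member probe sets left, of which P2ry13 passed the filter only through its knockout level. With an intensity trend 100 probe sets and 2 other purinergic genes passed, with array weights 19 probe sets passed, and at an adjusted p of 0.1 there were 158 probe sets and 2 other purinergic genes. The member median was 0.49 at the brightest probe sets. With each array left out in turn, 0 probe sets, 0 members and 0 other purinergic genes passed, and the member median lay between 0.24 and 0.38. The replicate numbers only name the pools. With the replicate block, 0 probe sets and 0 members passed (P2ry6 limma adjusted p = 0.306). The member median was then 0.38, P2ry1 gave 0.077 and P2rx4 at 1446429_at gave -0.024. No other array shares the number of control replicate 3, so the block fits that array exactly. Its differences equal those without control replicate 3, and the block is no separate check. Deviations of same-numbered arrays correlated at 0.15 and 0.21. With single arrays left out, the sign turned within -0.42 to 0.077 for P2ry1, -0.095 to 0.22 for P2rx4 at 1446429_at, -0.36 to 0.46 and -0.13 to 0.39 for P2rx7 at 1419853_a_at and 1422218_at, and -0.020 to 0.043 for Adora3 at 1429609_at. These 5 probe sets had overlapping groups, and the cause of the changes was not tested. The count of 8 member probe sets with both knockout arrays above every control, and the probe sets in it, stayed at 8 under centring and under quantile normalisation, which were chosen for it after seeing the data, as were the marker medians with an array left out.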
